A study of Mus musculus with 4 samples.

Results

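The genes described are 38 mouse genes of the machinery that brings proteins into the endoplasmic reticulum (ER) and folds them there: the Sec61 channel and its partners, the TRAP complex, signal peptidase, the signal recognition particle (SRP) and its receptor, the oligosaccharyltransferase, and the lumenal chaperones and disulfide isomerases. They were chosen by gene symbol in the mutant gene table and looked up by Ensembl identifier in the wild-type one, and all 38 were present among the 13478 genes of both tables. The measurement was RNA immunoprecipitation sequencing (RIP-seq) with an anti-Flag antibody in the mouse pancreatic cancer-associated fibroblast (CAF) line 15376CAFs. There were 4 libraries in 4 groups of 1: the IP from cells overexpressing Flag-Lin28b-MU, an RNA-binding deficient mutant, the input of those cells, the IP from cells overexpressing Flag-tagged wild-type Lin28b (Flag-Lin28b-WT), and the input of those cells. Cells of all groups therefore carried a Flag-tagged Lin28b. No group had a replicate, so every value below describes single libraries, no difference was tested, and no replicate error can be given. The promoter that drives the constructs and the position of the mutation are not given in the sources used here.

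Proteins bound for secretion or for membranes carry a signal sequence that SRP recognises as it leaves the ribosome; SRP docks on its receptor, and the chain is threaded through the Sec61 channel. In passage, signal peptidase removes the signal and the oligosaccharyltransferase adds N-linked glycans, after which chaperones and disulfide isomerases fold the chain. Lin28b binds RNA; it is best known for holding back let-7 microRNAs and it also associates with messenger RNAs. In mouse embryonic stem cells its paralogue Lin28a is known to bind many mRNAs translated at the ER.

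Levels are the authors' values per gene, read as FPKM, a level per length of transcript that allows genes to be set side by side. How deeply each library was sequenced is unknown. The ratio is log2 of (IP level + 0.01) over (input level + 0.01), so that 0 means an equal level in IP and input, and a gene is called higher or lower where it passed 2-fold (1 on the log2 scale). Over all 13478 genes the median ratio was −0.59 in the mutant and −0.28 in the wild type, and the median of the mutant ratio minus the wild-type ratio was −0.32. A ratio near those values is thus an average one, and a ratio less the median of its own construct is called centred below. As a check of the constructs, Lin28b stood at 36.7 FPKM in the mutant IP against 30.0 in its input, and at 8.99 in the wild-type IP against 13.8 in its input. Reads of the cell's own gene and of the construct were not told apart in these levels. Of 15 fibroblast markers 6 were listed in both tables. Col1a2, Col3a1, Dcn, Lum, Pdgfrb, Pdpn, Fap, Thy1 and Postn were not. In the inputs Vim stood at 547 FPKM in the mutant and 607 in the wild type, Fn1 at 74.6 and 118, Sparc at 83.8 and 93.8, and S100a4 at 40.7 and 214, whereas the collagen gene Col1a1 stood at 0.404 and 0.722 and Pdgfra at 0.860 and 1.33. Both tables listed 6 of 10 epithelial markers, without Epcam, Cldn4, Cldn7 and Esrp1. Krt8, Krt18, Krt19 and Cdh1 stood at 494, 441, 322 and 114 FPKM in the mutant input, against 601, 395, 665 and 219 in the wild-type input, while Krt7 had 3.32 in the mutant against 31.7 in the wild type, and Muc1 had 6.77 against 134. The inputs therefore held RNA of markers of both kinds. Col1a1 and Pdgfra were low, and most of the chosen fibroblast markers were not listed in both tables.

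In the mutant IP, 15 of the 38 members were at least 2-fold below input and 0 were at least 2-fold above it, with a median ratio of −0.65. Among all genes measured, 37.1% were lower and 5.99% higher in the mutant IP, so the share of lower members was near the background. In the wild-type IP, 2 members were lower and 6 higher, with a median of −0.11 that became 0.17 after centring; over all genes 21.7% were lower and 7.74% higher. The mutant ratio lay 1 or more below the wild-type ratio in 15 members and 1 or more above it in 0, against 26.1% and 7.37% of all genes, with a member median of −0.85. Next to the background, lower members were fewer in the wild-type IP and a mutant ratio below the wild-type ratio was more frequent, with no test of either. The background was not matched for gene span. Among 5573 protein-coding genes with at least 10 FPKM in both inputs, the level class that held all members but Srp54a, 35.3% were lower and 4.83% higher in the mutant IP, and 18.4% lower and 5.04% higher in the wild-type IP. The mutant ratio lay 1 or more below the wild-type ratio in 23% of them and 1 or more above it in 3.46%.

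The inputs of the constructs lay within 2-fold of each other for these genes. The mutant input level over the wild-type input level lay between 0.515 for Dad1 and 1.59 for Tram1, with a median of 0.973. The IP libraries differed more widely, with the mutant level over the wild-type level between 0.0748 for Sec11c and 1.92 for Rpn2. The inputs also entered the differences in ratio. In Tram1 the input value of 1.59 widened the difference, and in Dad1 that of 0.515 narrowed it. Since each construct has a table of its own with its own scaling, levels set across constructs carry that limit.

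**Figure D1:**
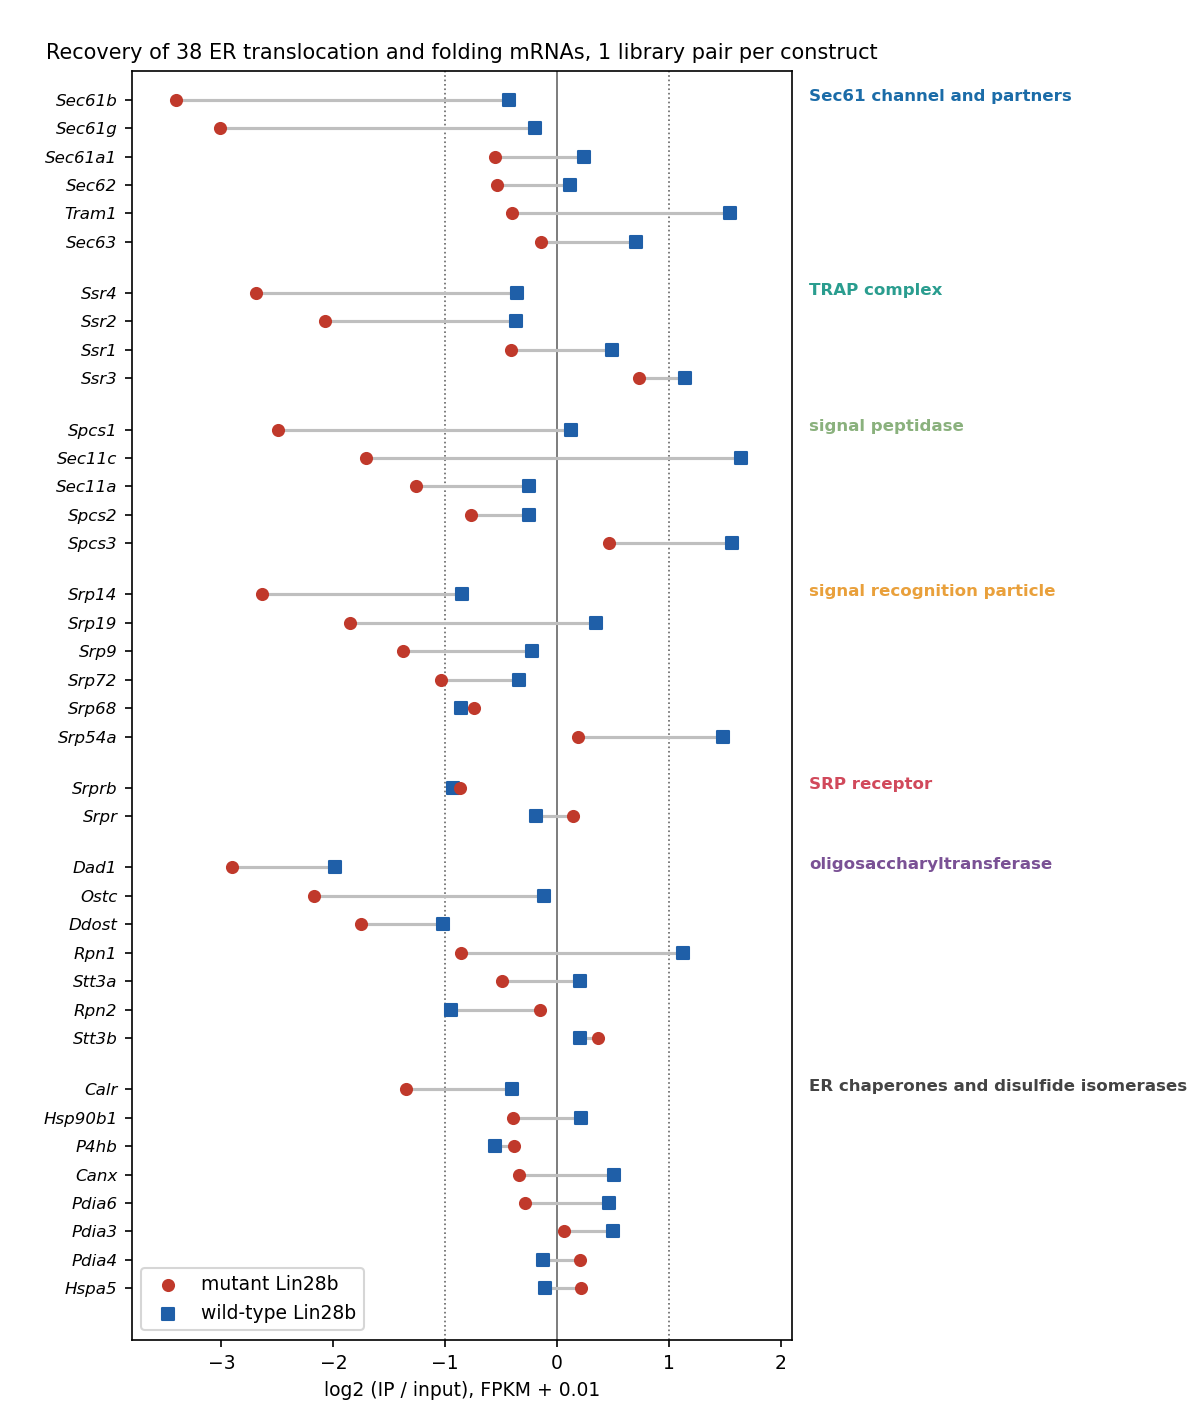
log2 ratio of IP over input (x axis, FPKM + 0.01) for each of the 38 members (grouped by complex and ordered by the mutant ratio), with the mutant as red circles and the wild type as blue squares. Dotted lines mark 2-fold. In 30 of 38 genes the mutant point lies left of the wild-type point. Over all 13478 genes the mutant ratio was below the wild-type ratio in 8518. Sec61b, Sec61g and Sec11c have the longest bars.

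Within the Sec61 channel the subunits parted. Sec61a1 (6:88503579-88518905, minus strand, build GRCm38 here and below), the gene of the pore-forming subunit, stood at 77.9 FPKM in the mutant IP against 115 in its input, and at 135 in the wild-type IP against 115 in its input. The ratios were −0.56 in the mutant and 0.24 in the wild type, both within 2-fold. Sec61b (4:47474658-47483242) and Sec61g (11:16500530-16508484) encode the small tail-anchored subunits. Sec61b stood at 5.56 FPKM in the mutant IP against 59.0 in its input, and at 73.5 in the wild-type IP against 99.1 in its input. Sec61g stood at 6.55 FPKM in the mutant IP against 52.8 in its input, and at 55.1 in the wild-type IP against 63.1 in its input. For both genes the mutant IP was far below the other 3 libraries, which lay within 2-fold of each other. The ratios were −3.40 in the mutant and −0.43 in the wild type for Sec61b, and −3.01 in the mutant and −0.19 in the wild type for Sec61g. Sec61b had the lowest mutant ratio of all 38 members and Sec61g the second lowest. The differences of −2.97 and −2.81 were −2.66 and −2.50 after centring.

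Of the partners of the channel, Tram1 and Sec63 had higher ratios than Sec61a1 in both constructs. Tram1 (1:13564698-13589910), whose product contacts nascent chains at the channel, stood at 37.6 FPKM in the mutant IP against 49.8 in its input, and at 91.2 in the wild-type IP against 31.3 in its input. The wild-type IP was the highest of the 4 libraries, 2.91-fold above its input, with ratios of −0.40 in the mutant and 1.54 in the wild type. Sec63 (10:42761496-42832514), which recruits the chaperone encoded by Hspa5 to the channel, stood at 20.5 FPKM in the mutant IP against 22.7 in its input, and at 46.3 in the wild-type IP against 28.3 in its input. Its ratios of −0.14 in the mutant and 0.71 in the wild type lay within 2-fold, and the wild-type IP was again the highest library. Sec62, a partner of Sec63 in translocation of short precursors, stood at 29.7 FPKM in the mutant IP against 43.2 in its input, and at 39.7 in the wild-type IP against 36.6 in its input, and its ratios of −0.54 in the mutant and 0.12 in the wild type were close to those of Sec61a1. For these 6 genes the median was −0.55 in the mutant, which became 0.04 after centring, and 0.18 in the wild type.

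The TRAP complex, a set of membrane proteins beside the channel that assists some precursors, was divided as well. Ssr3 (3:65379655-65392623) stood at 233 FPKM in the mutant IP against 140.3 in its input, and at 276 in the wild-type IP against 125 in its input. Both IPs exceeded their inputs, by 1.66-fold in the mutant and 2.22-fold in the wild type, and the mutant ratio of 0.73 was the highest of the 38 members. Ssr2 stood at 28.5 FPKM in the mutant IP against 120.1 in its input, and at 102 in the wild-type IP against 131 in its input. Ssr4 stood at 6.76 FPKM in the mutant IP against 43.6 in its input, and at 48.7 in the wild-type IP against 62.6 in its input. In Ssr2 and Ssr4 the mutant IP was the lowest library by a wide margin, with ratios of −2.08 and −2.69, while the wild-type ratio was −0.36 in both. Ssr1, the remaining subunit, stood at 16.5 FPKM in the mutant IP against 22.0 in its input, and at 26.1 in the wild-type IP against 18.6 in its input, with ratios of −0.41 in the mutant and 0.49 in the wild type.

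Signal peptidase held the member with the widest gap between the constructs. Sec11c (18:65800515-65817684) encodes a catalytic subunit and stood at 10.5 FPKM in the mutant IP against 34.4 in its input, and at 141 in the wild-type IP against 45.0 in its input. The wild-type IP was 3.13-fold above its input and the mutant IP 3.27-fold below its own, a difference of −3.35 on the log2 scale. Sec11c was the only member past 2-fold in opposite directions. Like it, 1.54% of all genes were lower in the mutant and higher in the wild type. Of coding genes with at least 10 FPKM in both inputs, 0.467% were. Its paralogue Sec11a, the alternative catalytic subunit, stood at 11.9 FPKM in the mutant IP against 28.7 in its input, and at 27.5 in the wild-type IP against 32.8 in its input, with ratios of −1.26 in the mutant and −0.25 in the wild type. The centred mutant ratio of Sec11a was −0.67, no longer past 2-fold, and its span overlaps Nmb on the same strand.

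Of the accessory subunits, Spcs3 (8:54520433-54529998) stood at 32.5 FPKM in the mutant IP against 23.6 in its input, and at 90.2 in the wild-type IP against 30.5 in its input. Its wild-type IP was 2.96-fold above input and its mutant IP 1.38-fold above input. With Ssr3 it was among the 2 members called higher in the mutant after centring, as were 2294 of all 13478 genes. Spcs1 stood at 9.79 FPKM in the mutant IP against 55.1 in its input, and at 50.8 in the wild-type IP against 46.5 in its input, so that the mutant IP was far below the other 3 libraries, with ratios of −2.49 in the mutant and 0.13 in the wild type. Spcs2 stood at 16.8 FPKM in the mutant IP against 28.5 in its input, and at 22.4 in the wild-type IP against 26.6 in its input, within 2-fold in both constructs. Over the 5 signal peptidase genes 3 were lower in the mutant and 2 higher in the wild type, against 37.1% and 7.74% of all genes.

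The SRP genes encode cytosolic proteins and had 4 of 6 lower in the mutant IP, against 37.1% of all genes. After centring 2 of the 6 were lower, as were 3073 of all 13478 genes. Srp14 and Srp9 encode the pair that slows elongation when a signal emerges. Srp14 stood at 8.44 FPKM in the mutant IP against 52.6 in its input, and at 26.0 in the wild-type IP against 46.7 in its input, and both IPs lay below their inputs, with ratios of −2.64 in the mutant and −0.85 in the wild type. Its partner Srp9 stood at 10.1 FPKM in the mutant IP against 26.4 in its input, and at 21.7 in the wild-type IP against 25.4 in its input, with ratios of −1.38 in the mutant and −0.23 in the wild type. Srp19, whose product helps to load the GTPase subunit onto the SRP RNA, stood at 7.65 FPKM in the mutant IP against 27.6 in its input, and at 28.7 in the wild-type IP against 22.5 in its input, low in the mutant IP alone, with ratios of −1.85 in the mutant and 0.35 in the wild type. Srp68 and Srp72 encode the subunits that bind each other on the same part of the particle. Srp68 stood at 31.6 FPKM in the mutant IP against 52.8 in its input, and at 26.3 in the wild-type IP against 47.7 in its input. Srp72 stood at 26.3 FPKM in the mutant IP against 54.1 in its input, and at 39.2 in the wild-type IP against 49.7 in its input. The ratios were −0.74 in the mutant and −0.86 in the wild type for Srp68, and −1.04 in the mutant and −0.34 in the wild type for Srp72, whose mutant ratio became −0.44 after centring.

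Srp54a, the gene of the GTPase that binds the signal sequence, stood at only 1.17 FPKM in the mutant IP against 1.03 in its input, and at 4.09 in the wild-type IP against 1.46 in its input. The wild-type ratio of 1.48 is uncertain, since the near-identical copies Srp54b and Srp54c can share its reads. Srp54b had ratios of 1.12 in the mutant and 0.30 in the wild type and Srp54c had 0.36 in the mutant and 0.37 in the wild type. In the authors' deposited table the q-value of Srp54a was 0.192 in the wild type. Without Srp54a, 5 of 37 members were higher in the wild type. The receptor genes did not pass 2-fold in either construct. Srpr, the GTPase subunit that SRP docks on, stood at 53.3 FPKM in the mutant IP against 48.2 in its input, and at 40.4 in the wild-type IP against 46.0 in its input. Srprb, its membrane anchor, stood at 8.67 FPKM in the mutant IP against 15.9 in its input, and at 7.45 in the wild-type IP against 14.2 in its input, with ratios of −0.87 in the mutant and −0.93 in the wild type. In both receptor genes the mutant ratio was slightly above the wild-type ratio, by 0.33 and 0.06.

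The oligosaccharyltransferase genes ranged most widely in the wild type. Rpn1 (6:88084482-88105304) and Rpn2 (2:157279017-157326319) encode ribophorins, subunits common to both forms of the enzyme, and ran in opposite directions. Rpn1 stood at 54.0 FPKM in the mutant IP against 98.2 in its input, and at 167 in the wild-type IP against 76.6 in its input, highest in the wild-type IP, with ratios of −0.86 in the mutant and 1.12 in the wild type. Rpn2 stood at 136 FPKM in the mutant IP against 151 in its input, and at 70.8 in the wild-type IP against 136 in its input, lowest in the wild-type IP, with ratios of −0.15 in the mutant and −0.94 in the wild type. The mutant minus wild-type difference was −1.98 for Rpn1 and 0.79 for Rpn2, the highest among the 38 members, which became 1.11 after centring.

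Dad1 and Ddost, further subunits common to both forms, were the 2 members at least 2-fold lower in both constructs. Dad1 stood at 4.55 FPKM in the mutant IP against 34.2 in its input, and at 16.7 in the wild-type IP against 66.4 in its input. Ddost stood at 20.0 FPKM in the mutant IP against 67.3 in its input, and at 39.9 in the wild-type IP against 80.9 in its input. The ratios were −2.91 in the mutant and −1.99 in the wild type for Dad1, and −1.75 in the mutant and −1.02 in the wild type for Ddost, whose centred wild-type ratio of −0.74 was within 2-fold. Ostc, a subunit of the form that works at the channel, stood at 14.0 FPKM in the mutant IP against 63.0 in its input, and at 71.3 in the wild-type IP against 77.3 in its input. In Ostc the mutant IP was the one low library, with ratios of −2.17 in the mutant and −0.12 in the wild type. The genes of the catalytic subunits lay within 2-fold. Stt3a, the catalytic subunit of the form at the channel, stood at 43.9 FPKM in the mutant IP against 62.0 in its input, and at 61.5 in the wild-type IP against 53.4 in its input, with ratios of −0.50 in the mutant and 0.20 in the wild type. Stt3b, that of the other form, stood at 90.6 FPKM in the mutant IP against 70.2 in its input, and at 88.7 in the wild-type IP against 77.2 in its input, with ratios of 0.37 in the mutant and 0.20 in the wild type.

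The chaperones and disulfide isomerases were the most abundant class and, among classes of more than 2 genes, the least spread in both constructs. Their 8 genes stood between 112 and 345 FPKM in the mutant input and between 119 and 443 in the wild-type input, against medians of 51.2 in the mutant input and 47.2 in the wild-type input over the other 30 members. Calr, encoding the lumenal lectin chaperone calreticulin, was the one gene past 2-fold: it stood at 135 FPKM in the mutant IP against 344 in its input, and at 336 in the wild-type IP against 443 in its input, with ratios of −1.35 in the mutant and −0.40 in the wild type, and its centred mutant ratio was −0.75. Canx, the membrane-bound counterpart of Calr, stood at 141 FPKM in the mutant IP against 178 in its input, and at 269.5 in the wild-type IP against 189 in its input, highest in the wild-type IP. Hspa5, the gene of the Hsp70 chaperone BiP, stood at 341 FPKM in the mutant IP against 293 in its input, and at 279 in the wild-type IP against 301 in its input. Hsp90b1, the Hsp90 of the ER, stood at 262 FPKM in the mutant IP against 345 in its input, and at 359 in the wild-type IP against 308 in its input. All 4 libraries of Hspa5 and of Hsp90b1 lay within 1.5-fold of each other. Hsp90b1 overlaps Gm15344 on the same strand.

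Of the disulfide isomerases, Pdia3, which works with the lectin chaperones, stood at 220.5 FPKM in the mutant IP against 211 in its input, and at 305 in the wild-type IP against 217 in its input, with ratios of 0.07 in the mutant and 0.50 in the wild type. Pdia6 stood at 110.2 FPKM in the mutant IP against 135 in its input, and at 222 in the wild-type IP against 160.5 in its input. In both the wild-type IP was the highest library, and the ratios of Pdia6 were −0.29 in the mutant and 0.47 in the wild type. Pdia4 stood at 129 FPKM in the mutant IP against 112 in its input, and at 109 in the wild-type IP against 119 in its input, so that all 4 libraries were close. P4hb, which also serves as a subunit of collagen prolyl hydroxylase, stood at 220.0 FPKM in the mutant IP against 288 in its input, and at 264 in the wild-type IP against 387 in its input, and both IPs were below their inputs, with ratios of −0.39 in the mutant and −0.55 in the wild type. The class medians were −0.32 in the mutant, which became 0.28 after centring, and 0.05 in the wild type.

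Of the 8 genes of the chaperone class, 5 carried a promoter element already known from the ER stress response. Its share in these genes is therefore a description and no independent support. ER stress factors are known to act through the ER stress response element (ERSE), CCAAT and CCACG with 9 bases of any kind between them, and RefSeq promoter windows (GRCm38.p6) were found by symbol for 30 of the 38 members. In the 250 bases before the start, searched on both strands, the element was found in 5 of these 30, all in the chaperone class, against 0.130% of 27025 genes with a window. The matches are printed on the gene's strand with 20 bases on each side, because they show what the 5 genes have in common; capitals mark the element, which runs in reverse in Calr and in the second match of Hsp90b1:
Hspa5: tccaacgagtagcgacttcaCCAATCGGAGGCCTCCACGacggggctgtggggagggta
Hsp90b1, first: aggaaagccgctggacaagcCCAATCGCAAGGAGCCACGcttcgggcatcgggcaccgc
Hsp90b1, second: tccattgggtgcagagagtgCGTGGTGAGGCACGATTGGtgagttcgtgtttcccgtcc
Calr: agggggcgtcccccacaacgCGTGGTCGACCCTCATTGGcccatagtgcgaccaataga
Canx: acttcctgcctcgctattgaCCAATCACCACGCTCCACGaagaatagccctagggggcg
Pdia6: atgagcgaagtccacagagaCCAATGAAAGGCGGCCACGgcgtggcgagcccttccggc

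The stretches shown lie at chr2:34772005-34772063 (plus strand) for Hspa5, chr10:86705618-86705676 and chr10:86705513-86705571 (minus) for Hsp90b1, chr8:84847055-84847113 (minus) for Calr, chr11:50325780-50325838 (minus) for Canx and chr12:17266471-17266529 (plus) for Pdia6. The element begins 65 bases before the RefSeq start in Hspa5 and 162 bases before it in Calr. Its 2 arms were the same in all 6 matches as the search demands, and the 9 bases between them differed from gene to gene. The related pattern of ATTGG and CCACG with 1 base between them (ERSE-II) and the letters TGACGTGG (UPRE core) were each found in 0 of the 30 members, against 0.0370% and 0.603% of genes. The 5 genes with the element stood between 135 and 345 FPKM in the mutant input and between 160.5 and 443 in the wild-type input. The other 3 of the class, Pdia3, Pdia4 and P4hb, stood between 112 and 288 in the mutant input and between 119 and 387 in the wild-type input, so the ranges overlap. A match describes these letters and is not a measured binding site.

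**Figure D2:**
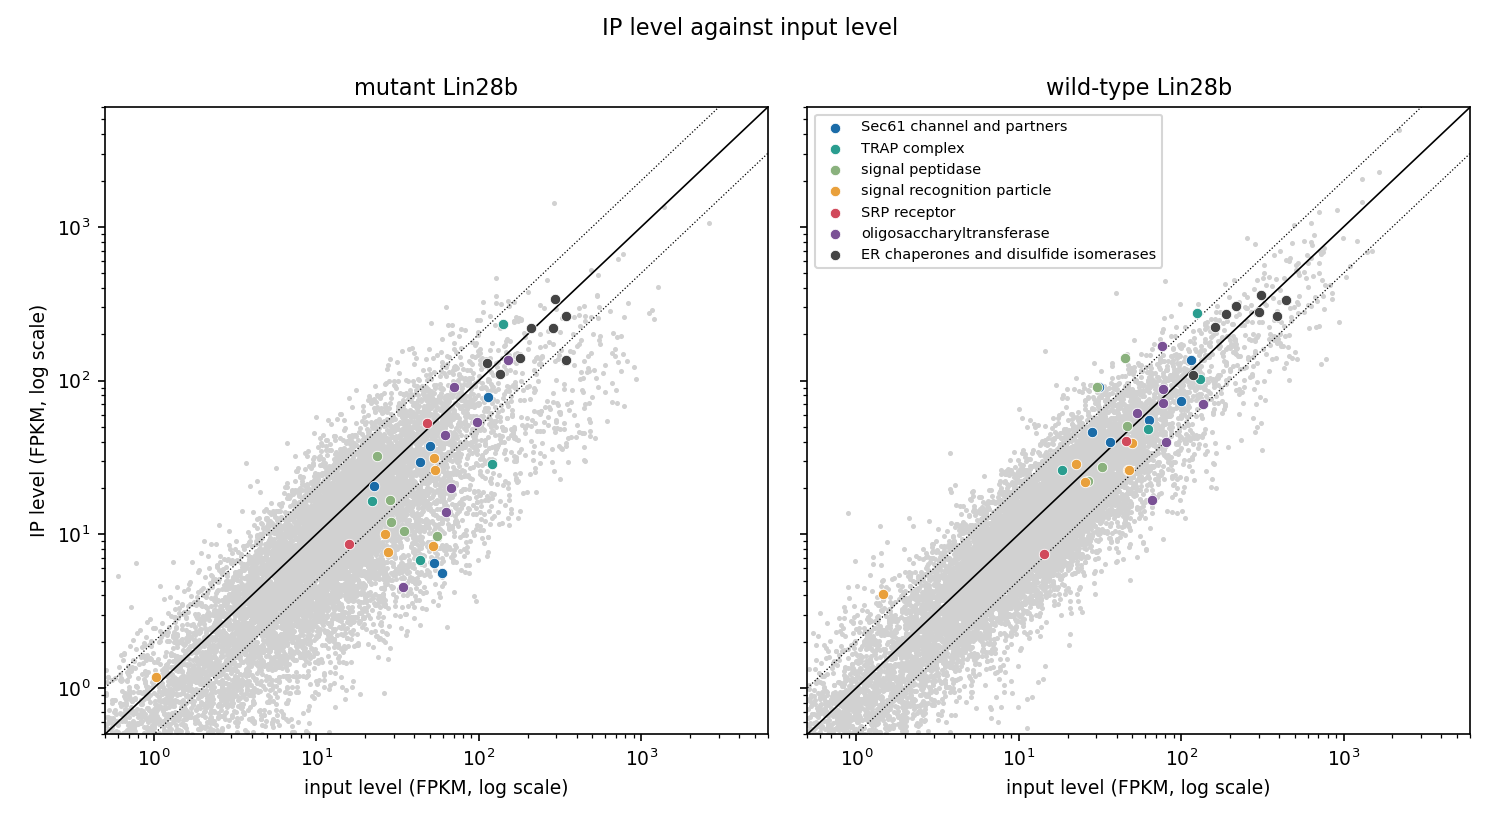
IP level (y axis) against input level (x axis), both in FPKM on log scales, in the mutant (left) and the wild type (right), with members coloured by complex and other genes of both tables in grey. The solid line is equality and dotted lines mark 2-fold; genes under 0.5 FPKM are not drawn. The chaperones sit at the upper end of both panels, and 15 members lie below the lower dotted line in the mutant, against 2 in the wild type.

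Recovery moved with the span of the gene, from its first to its last annotated base. Across the 38 members Spearman's rho between span and ratio was 0.50 in the mutant and 0.22 in the wild type, and across the 5573 coding genes with at least 10 FPKM in both inputs it was 0.64 and 0.44. The points of each construct come from the same 2 libraries, so these values are a description. The 15 members lower in the mutant had a median span of 7.96 kb, and the other 23 one of 25.2 kb. Of the 11 members spanning less than 10 kb, 9 were lower in the mutant, against 75.1% of 1374 coding genes of that span and level. In the wild type 1 of the 11 was lower, against 43.5%, and their median ratio was −0.23, against −0.85 for coding genes of that span. The mutant median was −1.85 in these members and −1.74 in coding genes of that span.

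The short members not lower in the mutant were Spcs3 and Hspa5. Srpr, also not lower, spans 47.8 kb in the deposited tables but 5.80 kb in RefSeq, and with RefSeq spans rho over the members was 0.43 in the mutant and 0.23 in the wild type. Of the 13 members between 10 and 25 kb, 4 were lower in the mutant, against 39.4% of coding genes of that span and level. In the wild type 3 of the 13 were higher, against 4.23%. Of the 14 members of 25 kb or more, 2 were lower in the mutant, against 12.6% of such coding genes. In the wild type 2 of the 14 were higher, against 7.18%. Spearman's rho between span and the mutant minus wild-type difference was 0.44 over the members and 0.41 over the 5573 coding genes. From short to long spans, 8 of 11, 4 of 13 and 3 of 14 members had a difference of −1 or less. Of coding genes of those spans and that level, 41.6%, 26.7% and 11.4% did. The part of gene span in the difference between the constructs was not tested.

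**Figure D3:**
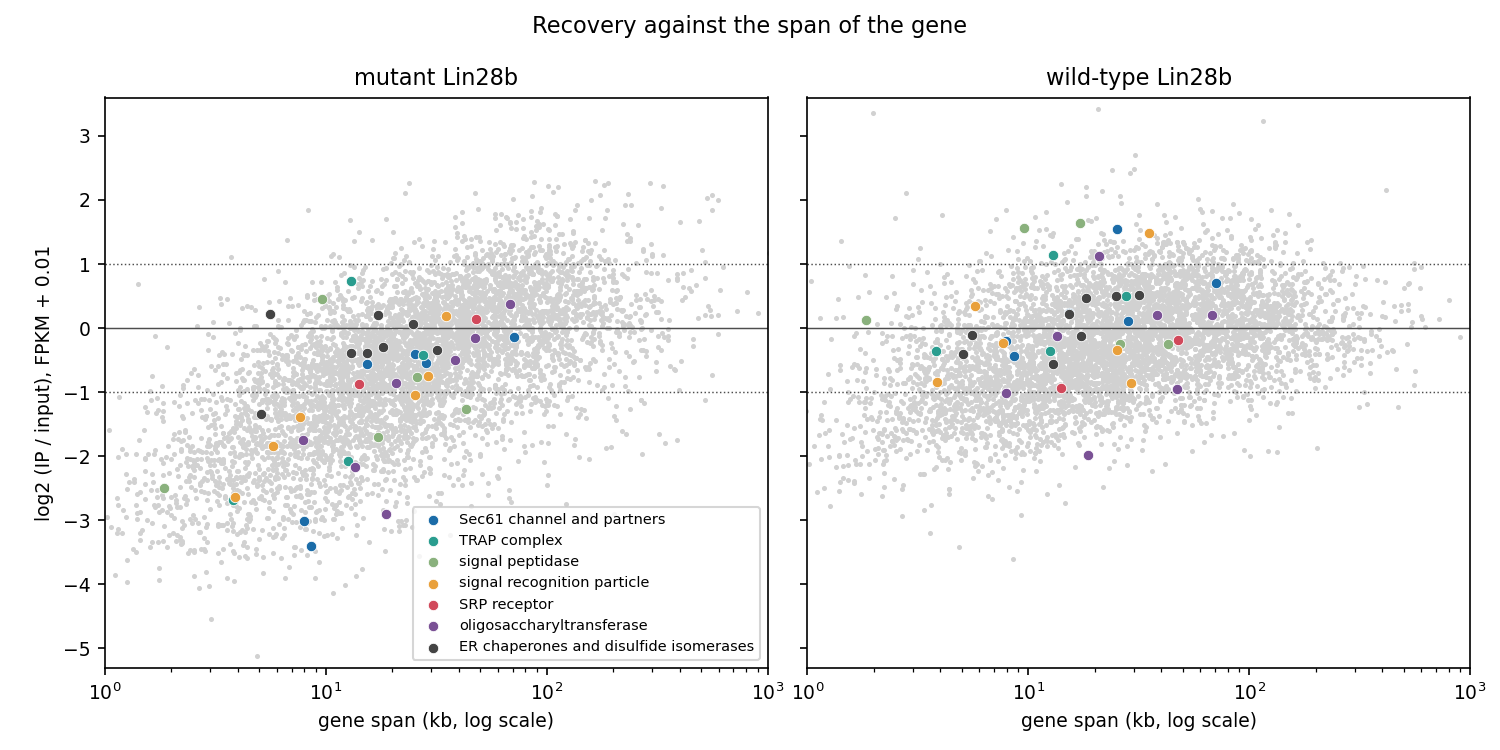
log2 ratio of IP over input (y axis, FPKM + 0.01) against gene span in kb (x axis, log scale) in the mutant (left) and the wild type (right), with members coloured by complex and coding genes with at least 10 FPKM in both inputs in grey. Of the members under 10 kb, 9 of 11 lie below the lower dotted line in the mutant and 1 in the wild type.

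The authors' peak lists, 1 per IP, show where recovery was concentrated. A peak was given to a member where its summit lay inside the gene on its strand, peaks sharing at least 1 base count as overlapping, and all folds are the authors' own. The mutant list gave 20 peaks in 10 members and the wild-type list 65 peaks in 16 members. Among all genes measured, 18.6% carried a mutant peak and 25.1% a wild-type peak, and of the coding genes with at least 10 FPKM in both inputs 28.2% and 38.8%, so the members were near the share of genes of their level. Peaks of both lists were found in 9 members, of the mutant list alone in 1 (Pdia4), of the wild-type list alone in 7 and of neither in 21. The 8 genes of SRP and its receptor carried 0 peaks in either list, whereas 10 of the other 30 carried a mutant peak and 16 a wild-type peak.

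The strongest peaks were those of Tram1 and Sec63 in the wild type. In Tram1 the wild-type list held 7 peaks, led by one of 1698 bases at 1:13564863-13566560 with a fold of 23.4, number 60 by fold among the 11912 peaks of its list. Its summit lay 0.973 kb from the 3' end of the gene. The mutant list had a peak of 374 bases inside that stretch with a fold of 2.50. A second pair coincided at 1:13570046-13570249 in the mutant, with a fold of 4.28, and 1:13569961-13570268 in the wild type, with a fold of 10.5.

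Sec63 carried 10 wild-type peaks, the most of any member, and 1 mutant peak. The strongest wild-type peak (10:42801457-42801876, fold 16.7) overlapped the mutant peak (10:42801526-42801831, fold 3.52), and the next, at 10:42761575-42761835 with a fold of 14.4, had its summit within the first 0.290% of the gene. The third lay at 10:42789127-42789370 with a fold of 13.2. The peaks of Sec63 thus ran between its 5' and 3' ends, whereas its gene-level ratio in the wild type was only 0.71.

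Long peaks lay at the 3' ends of Ssr3 and Spcs3. In Ssr3 the mutant peak (3:65379971-65382178, fold 3.07) and the wild-type peak (3:65379945-65382189, fold 4.24) covered nearly the same 2208 and 2245 bases. In Spcs3 a wild-type peak of 2964 bases (8:54520579-54523542, fold 5.13) spanned all 3 mutant peaks, whose folds were 1.68 to 2.40. Rpn1 had 7 wild-type peaks and 0 mutant peaks, the highest at 6:88099094-88099324 with a fold of 6.53, and its partner Rpn2 had 0 in either list. Sec11c had 3 wild-type peaks with folds of 5.83 to 7.52 and 0 mutant peaks, and was the one of the 15 members lower in the mutant IP with a peak in either list. In the wild-type list a further peak on the opposite strand overlapped a Sec11c peak, and another lay beside the highest Rpn1 peak. Of the 6 members higher in the wild type, 5 carried a wild-type peak and Srp54a did not.

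Among the chaperones, Hsp90b1 had 7 wild-type peaks, with folds of 1.20 to 3.38, and 0 mutant peaks. Canx had 2 mutant and 6 wild-type peaks, and both mutant peaks overlapped wild-type ones. Hspa5 had 2 peaks in each list at the same places, with folds of 2.43 and 1.10 in the mutant and 2.08 and 1.18 in the wild type. Stt3b had 5 in each list, of which 3 pairs coincided near the 3' end. Pdia4 had 2 mutant peaks, with folds of 2.33 and 1.63, and was the one member with mutant peaks alone. Its ratios of 0.20 in the mutant and −0.13 in the wild type lay near equality. In Ssr1 both lists had peaks but at different places, 1 in the mutant and 3 in the wild type, with none shared.

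Of the member peaks, 15 of 20 mutant peaks (75.0%) overlapped a wild-type peak and 13 of 65 wild-type peaks (20.0%) overlapped a mutant peak, against 36.2% and 49.6% over the whole lists. The share was thus above its list's in the mutant and below it in the wild type. The median fold was 2.41 for mutant member peaks, against 4.22 for that list, and 3.32 for wild-type member peaks, against 3.77. Only 1 mutant member peak, in Tram1, reached its list's median, as did 26 wild-type member peaks. Summits within 2 kb of the 3' end made up 10 of 20 mutant and 14 of 65 wild-type member peaks, against 13.5% and 24.7% of peaks in coding genes with at least 10 FPKM in both inputs. That background was not matched for gene span. Genes of 25 kb or more held 10437 of its 11272 mutant and 6839 of its 8428 wild-type peaks. Members of that span held 11 of the 20 and 34 of the 65. The part of gene span in these shares was not tested. Exons were not assigned, since no exon models were used.

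**Figure D4:**
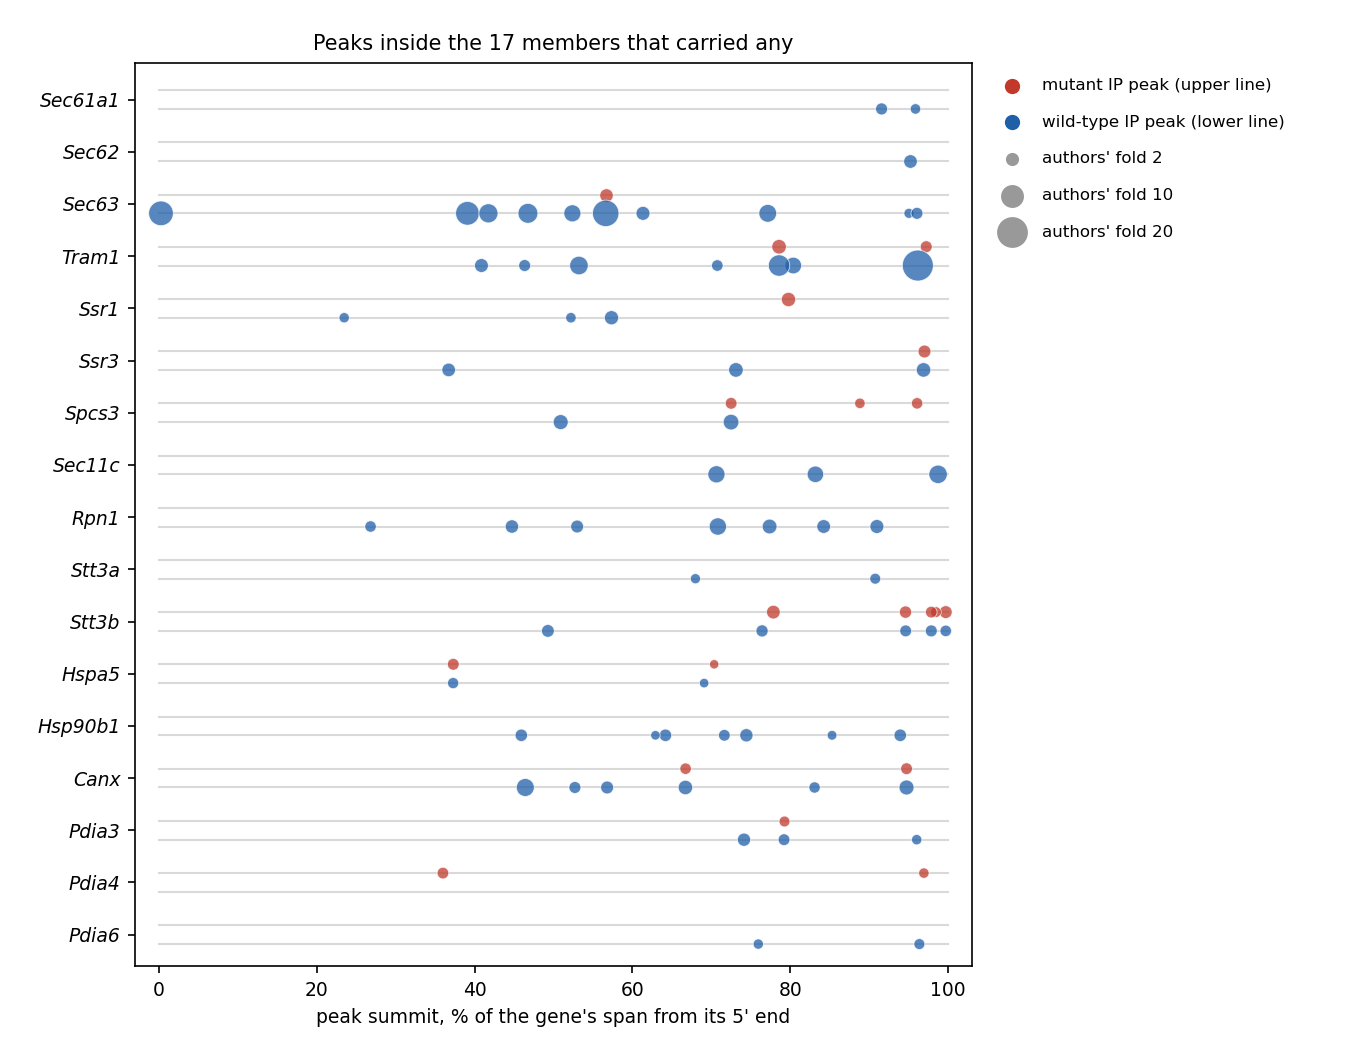
Peak summits inside the 17 members with any peak, placed by percent of the gene's span from its 5' end (x axis), with mutant peaks in red on the upper line and wild-type peaks in blue on the lower line of each gene. The area of a dot grows with the authors' fold. The wild-type lines of Sec63 and Tram1 hold the largest dots, and the lists coincide in Hspa5 and at the 3' ends of Stt3b and Ssr3.

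Further genes of the same pathways were counted from 5 lists. Over their 131 measured genes 47 were lower and 8 higher in the mutant IP, with a median ratio of −0.66, and 24 lower and 7 higher in the wild-type IP, with a median of −0.33. These shares were near those of all genes, against which the single lists below are also to be read. Of all genes 37.1% were lower and 5.99% higher in the mutant IP, and 21.7% lower and 7.74% higher in the wild-type IP. Of other targeting and insertion genes, 10 of 26 were lower and 1 higher in the mutant, and 5 lower and 1 higher in the wild type. Tmem147, of the multipass translocon, stood at 3.01 FPKM in the mutant IP against 30.3 in its input, and at 25.7 in the wild-type IP against 49.4 in its input. Emc6, of the ER membrane insertase, had ratios of −2.24 in the mutant and −0.83 in the wild type. Asna1 and Get4, of the tail-anchor route, had −2.62 and −1.99 in the mutant and −0.87 and −1.27 in the wild type.

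Of other N-glycosylation genes, 13 of 28 were lower and 2 higher in the mutant, and 5 lower and 3 higher in the wild type. The small oligosaccharyltransferase subunit genes Ost4, Krtcap2 and Tmem258 were lower in both constructs, as were Dad1 and Ddost above. Ost4 stood at 5.53 FPKM in the mutant IP against 59.1 in its input, and at 18.2 in the wild-type IP against 92.1 in its input. The ratios were −3.21 in the mutant and −2.02 in the wild type for Krtcap2, and −3.04 in the mutant and −1.51 in the wild type for Tmem258. Dpagt1, which starts the glycan donor, had −2.26 in the mutant and 0.08 in the wild type.

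Of other ER folding genes, 11 of 35 were lower and 2 higher in the mutant, and 7 lower and 2 higher in the wild type. Tmx1, a membrane-bound thioredoxin-like oxidoreductase gene, stood at 14.2 FPKM in the mutant IP against 13.9 in its input, and at 49.6 in the wild-type IP against 12.6 in its input, high in the wild-type IP alone. The prolyl isomerase genes Fkbp11 and Fkbp7 had mutant ratios of −2.56 and −2.43 and wild-type ratios of −1.43 and −0.03, and the peroxiredoxin gene Prdx4 had −1.99 in the mutant and −0.83 in the wild type. Of ER-associated degradation genes, 8 of 25 were lower and 3 higher in the mutant, and 3 lower and 1 higher in the wild type. Selenok, Aup1, Selenos and Ufd1 had mutant ratios of −3.03, −2.40, −1.76 and −1.71 and wild-type ratios of −1.67, −1.04, −0.03 and −0.81.

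Regulators of the unfolded protein response, which raises ER chaperone genes under stress, showed 5 lower and 0 higher genes of 17 in the mutant IP. In the wild-type IP 4 were lower and 0 higher. Of all genes 37.1% were lower and 5.99% higher in the mutant IP, and 21.7% and 7.74% in the wild-type IP. The mutant input level over the wild-type input level ran between 0.128 for Creb3l1 and 10.1 for Trib3 over the 17 regulators, with a median of 1.29. These ends of the range are named after their values were seen. Atf4, a transcription factor gene, stood at 35.2 FPKM in the mutant IP against 144 in its input, and at 25.6 in the wild-type IP against 59.2 in its input. Ddit3, its target and a transcription factor gene too, stood at 4.47 FPKM in the mutant IP against 24.9 in its input, and at 3.54 in the wild-type IP against 5.61 in its input. Atf4 and Ddit3 were higher in the mutant input than in the wild-type input, while Xbp1, which stood at 48.7 FPKM in the mutant input and 54.0 in the wild-type input, and the chaperone genes Hspa5 and Hsp90b1 were close between the inputs. The ratios of Xbp1 were −1.36 in the mutant and −1.10 in the wild type, and those of Wfs1, an ER membrane protein gene, −1.12 in the mutant and −1.60 in the wild type.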

How the data were processed

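The 38 genes and the gene lists were chosen with earlier results of these data known. RIP-seq with an anti-Flag antibody and input sequencing gave 4 libraries, 1 per group; per the labels' protocols the library kit was a stranded mRNA kit, and the strand setting of the counting is not stated. The submitters' processing notes list bedtools, HOMER 4.11.1, MACS2 2.2.7.1 and HISAT2 2.1.0, with builds mm10 and GRCm38 and no role stated for any. The authors' deposited levels have no unit in the file headers and were read as FPKM from their values, which sum to between 207301 and 321238 per library. Sequencing depth is unknown, so no counting interval was computed.

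Each deposited table holds, per the file headers, the log2 of IP over input by the authors, and a p-value and q-value from a comparison of single libraries by a test that is not stated. The log2 ratios used here were recomputed with a pseudocount of 0.01, and with 1 library per group no test was made. In the deposited peak lists, 15931 peaks for the mutant and 11912 for the wild type with strands called apart, the narrowPeak layout holds the authors' score, fold, −log10 p and q and summit offset. Of these the fold and summit were used, and the −log10 p in an alternative.

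Members were described by class, and of further pathway genes up to 4 per list were named: those with the largest absolute ratio in either construct among genes reaching 1 FPKM in the higher library of both tables. The backgrounds are all 13478 shared genes and protein-coding genes with at least 10 FPKM in both inputs, the second chosen after seeing the data. Of the members, 10 overlap a gene on the opposite strand. RefSeq promoter windows matched 30 members by symbol. Ostc, Sec11c, Sec61a1, Spcs3, Srp19, Srp68, Ssr2 and Tram1 had none. Protein lengths were not used here. Calculations used Python 3.11.15, pandas 2.3.3, numpy 2.4.6 and scipy 1.17.1, and the scripts were tested on simulated data. Alternatives were the pseudocount, centring, a floor on low levels, the authors' q-value as a further criterion, peak strength, peak assignment, peak list length and peak overlap.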

Additional observations from a re-analysis of the deposited data

Results flagged for a closer look

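Sec11c was picked out because its constructs moved in opposite directions. The ratio of IP over input was −1.71 in the mutant and 1.64 in the wild type, and the mutant minus wild-type difference of −3.35 on the log2 scale was not tested, since each value rests on 1 IP and 1 input library. After centring the difference was −3.04. Sec11c carried 0 mutant peaks and 3 wild-type peaks.

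Peaks on the strand opposite to a member lie outside the comparisons above. The mutant list held 0 and the wild-type list 7 such peaks, in 4 of the 38 members. Srpr had 4 of them, on the strand of Fam118b, a gene that overlaps it. The other 3 lay outside annotated genes of their strand, with folds of 8.98 in Sec11c (18:65814871-65815076), 7.61 in Rpn1 (6:88099335-88099544) and 4.65 in Sec62 (3:30809934-30810162). The peak in Sec11c overlapped a peak of the gene's own strand by 64 bases, and the peak in Rpn1 lay 10 bases from one. The part of reads from the opposite strand in the levels of Sec11c and Rpn1 was not tested.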

How the results depend on the processing

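No alternative reversed the direction of a called value. Centring on the median of all genes moved the medians of the 38 members to −0.056 in the mutant, 0.17 in the wild type and −0.54 for the difference, so the sign in the wild type turned. It also gave 2 members higher in the mutant (Ssr3, Spcs3), 1 lower in the wild type (Dad1) and 1 with a mutant ratio 1 or more above the wild-type ratio (Rpn2), while 11 were lower in the mutant and 11 had a difference of −1 or less. Of all 13478 genes, centring gave 2294 higher and 3073 lower in the mutant, and 1944 lower in the wild type. It gave 1738 with a difference of 1 or more and 2492 with one of −1 or less. With a pseudocount of 1 the medians were −0.64 in the mutant and −0.81 for the difference. Without Srp54a, an alternative chosen after seeing the data, the medians were −0.74 in the mutant and −0.12 in the wild type. Among single members, centring ended 9 calls and made 3, and a pseudocount of 1 ended 2, the differences of Sec11a and Srp54a. With the authors' q-value under 0.05 as a further criterion, 15 members were lower in the mutant and 5 higher in the wild type. Peaks at or above the median fold of their list left 1 member with a mutant peak and 8 with a wild-type peak. A pseudocount of 0.1, the floor on low levels and the other peak settings left every count within 1.5 times. No paired analysis was possible because each group held 1 library, and for the same reason no replicate could be left out. Depth is unknown, so what it limits cannot be stated.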
